A study of Mus musculus with 60 samples.

Results

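Miat, Mir124a-1hg, Malat1, Neat1, Snhg11 and C78859 are long noncoding RNA genes of the mouse brain. They were chosen by name: the rows of the deposited table whose Ensembl identifier carries one of these symbols in GENCODE release M21 were taken, and all 6 symbols were found among 18088 genes. All 6 passed the filter on low values, and the lowest read number of any of them in any library was 796, for Neat1. Miat, Mir124a-1hg and C78859 had been named before for their difference between the genotypes without drug, and how the other members came to be listed is not recorded. The difference between the genotypes under vehicle is therefore given for all 6 as a description, without a test.

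Long noncoding RNAs are transcripts that are not known to be translated, and many of them stay in the nucleus. Miat, also called Gomafu or Rncr2, is a nuclear RNA of neurons whose repeats of a splicing branch-point motif are bound by splicing factors such as SF1. Mir124a-1hg, also called Rncr3, is the host transcript of one of the genes for miR-124, the abundant microRNA of neurons. Malat1 lies in nuclear speckles, which hold splicing factors, and Neat1 is the scaffold of paraspeckles; both are made in many cell types besides neurons. Snhg11 belongs to the genes named for the small nucleolar RNAs in their introns. C78859 contains one of the genes for miR-138, a microRNA known in neurons for acting on dendritic spines.

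RNA was sequenced from prefrontal cortex of C57BL/6J mice on postnatal day 25, after 3 weeks of drug (postnatal days 3 to 24) that reached the pups through the milk of their mother. The study compared mice heterozygous for a missense allele of Grin2b, the gene of the GluN2B subunit of the NMDA receptor, with wild-type mice, and asked how early fluoxetine or lithium changes expression in each. Fluoxetine is a serotonin reuptake inhibitor and lithium a mood stabiliser. The 6 groups were Grin2b+/C456Y mice given fluoxetine (Het fluoxetine), WT fluoxetine, Het lithium, WT lithium, Het vehicle and WT vehicle, with 5 female and 5 male libraries in each, 60 in all. The allele is present in every cell and not in one cell type alone, and no untreated group stands beside vehicle. The labels number the replicates without saying that each is a separate animal or litter, so p-values measure only the spread between these samples.

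The 6 genes lie on 5 chromosomes (GRCm38, GENCODE M21). Miat (ENSMUSG00000097767) is at chr5:112213228-112229395 on the minus strand. Mir124a-1hg (ENSMUSG00000097545) is at chr14:64587331-64593961 on the plus strand. Malat1 (ENSMUSG00000092341) at chr19:5795690-5802672 and Neat1 (ENSMUSG00000092274) at chr19:5824708-5845478 are neighbours on the minus strand, 22036 bases apart. Snhg11 (ENSMUSG00000044349) is at chr2:158375638-158386145 and C78859 (ENSMUSG00000110710) at chr8:94322158-94328100, both on the plus strand. GENCODE M21 gives 5 of the 6 the type lincRNA, a type held by 705 genes of the table. It gives Snhg11 the type protein_coding, which goes against its label as a noncoding RNA, whereas the RefSeq gene table lists it as lncRNA.

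The repeats that Miat is known for can be seen in its last exon. The longest annotated Miat transcript, of 9163 bases in 7 exons, held 11 copies of ACTAAC and 6 of the longer TACTAAC, which contains it, counted on the transcript strand. Of 4190 longest transcripts of at least 5000 bases, 54.1% held ACTAAC, with a median of 1 copy, and 9 (0.215%) held at least as many copies as Miat. For TACTAAC, 16.8% of them held a copy and 2 (0.0477%) held at least 6. Neat1 had 4 copies of ACTAAC and 1 of TACTAAC in 20771 bases, Snhg11 had 1 and 0, and Malat1, Mir124a-1hg and C78859 had none of either. Both densest stretches of exon 7 are shown because they carry 8 of the 11 copies; capitals mark ACTAAC. The first is at chr5:112217313-112217455 (143 bases) and the second at chr5:112216756-112216873 (118 bases), both on the minus strand of GRCm38.
Miat stretch 1: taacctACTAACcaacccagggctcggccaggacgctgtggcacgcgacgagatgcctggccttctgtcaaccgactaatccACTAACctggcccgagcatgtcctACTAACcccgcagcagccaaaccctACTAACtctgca
Miat stretch 2: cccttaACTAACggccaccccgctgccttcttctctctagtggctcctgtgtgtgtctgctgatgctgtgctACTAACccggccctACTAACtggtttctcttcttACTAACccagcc

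C78859 is annotated as a single exon of 5943 bases, and the hairpin of Mir138-2 lies inside it on the same strand, at chr8:94324311-94324381. The hairpin is shown because it is a known product that lies within C78859; capitals mark both mature arms, and in the mature sequences they mark the seed, bases 2 to 8 (RefSeq, GRCm38.p6).
Mir138-2 hairpin: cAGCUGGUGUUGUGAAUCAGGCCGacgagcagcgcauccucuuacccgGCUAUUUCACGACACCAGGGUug
mmu-miR-138-5p: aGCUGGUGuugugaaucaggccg
mmu-miR-138-2-3p: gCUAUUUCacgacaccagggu
The 5p arm is also made from Mir138-1 at chr9:122682898-122682920, so its level would not follow C78859 alone. Mature microRNAs were not measured in these libraries.

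Libraries held 23901635 to 37769417 reads. The mean level of 16 pseudogenes, which were taken because they differed over 4-fold between these groups, was 1.78 to 5.65 (log2) in Het fluoxetine, against 4.60 to 7.14 in WT fluoxetine, and 9 of the 10 Het fluoxetine libraries, all except male replicate 1, fell into a low set of 10 libraries together with WT vehicle female replicate 2. The correlation across genes of a library's deviation with GC content was -0.31 to -0.10 in Het fluoxetine, -0.04 to 0.24 in WT fluoxetine, -0.22 to 0.34 in Het lithium, -0.49 to 0.23 in WT lithium, -0.14 to 0.21 in Het vehicle and -0.36 to 0.21 in WT vehicle. The members' results with Het fluoxetine are given also with a term for the 10 low libraries (library term) and after a correction for GC content. The library term nearly coincides with the Het fluoxetine group, so a fit with it cannot tell the group from the low set. A call lost with it therefore does not show that the difference is absent. Grin2b differed by a log2 fold of 0.09 between Het and WT in vehicle (adjusted p = 0.709, limma); the allele is a point change, so its level does not check the labels. Defining markers of cortical excitatory neurons were present in every group, with Slc17a7 at 38828 to 68012 normalised reads, and no marker of the 10 cell types checked was at 0 throughout a group. Markers of striatal neurons and choroid plexus varied widely between libraries: Drd2 spanned 18.3 to 605, Ppp1r1b 1235 to 13883 and Ttr 1.03 to 2244. Summed striatal markers had a median of 3152 and a highest value of 19345 in WT lithium. The part of such uneven tissue content in the members' results was not tested.

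Values are normalised read counts, that is reads divided by a size factor of the library. Per kilobase of exon, mean levels over the 60 libraries were 6479 for Snhg11, 4050 for Malat1, 2215 for Miat, 1222 for Mir124a-1hg, 222 for C78859 and 64.2 for Neat1. Snhg11 thus ranked 114 of 18077 genes, and Neat1 ranked 10404. The libraries were made from polyadenylated RNA, and Malat1 and the long form of Neat1 are known to end without a poly(A) tail, so these levels count the RNA that was captured. Neat1 varied the most within groups, with a residual SD of 0.26 (log2) against 0.11 for both Mir124a-1hg and C78859.

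Among the 6 groups, the order of levels differed between genes. Miat averaged 20183 ± 2822 in Het fluoxetine, 21903 ± 1682 in WT fluoxetine, 21080 ± 1379 in Het lithium, 20566 ± 2762 in WT lithium, 22538 ± 2266 in Het vehicle and 17218 ± 1351 in WT vehicle (SD, n = 10 each). WT vehicle was the low group: only the step of 2965 between it and the next, Het fluoxetine, was larger than the SDs of the groups on either side. Mir124a-1hg averaged 5309 ± 762 in Het fluoxetine, 5875 ± 498 in WT fluoxetine, 6020 ± 470 in Het lithium, 5762 ± 307 in WT lithium, 6725 ± 484 in Het vehicle and 5532 ± 546 in WT vehicle (SD, n = 10 each). Here Het vehicle was the high group, by a step of 705 over Het lithium, and the other neighbours lay within their spread. For Malat1, Neat1, Snhg11 and C78859 no neighbouring groups in the order differed by more than the larger of their SDs. Between its highest and lowest group means, a member differed by 1.16-fold (Malat1) to 1.31-fold (Miat).

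**Figure D1:**
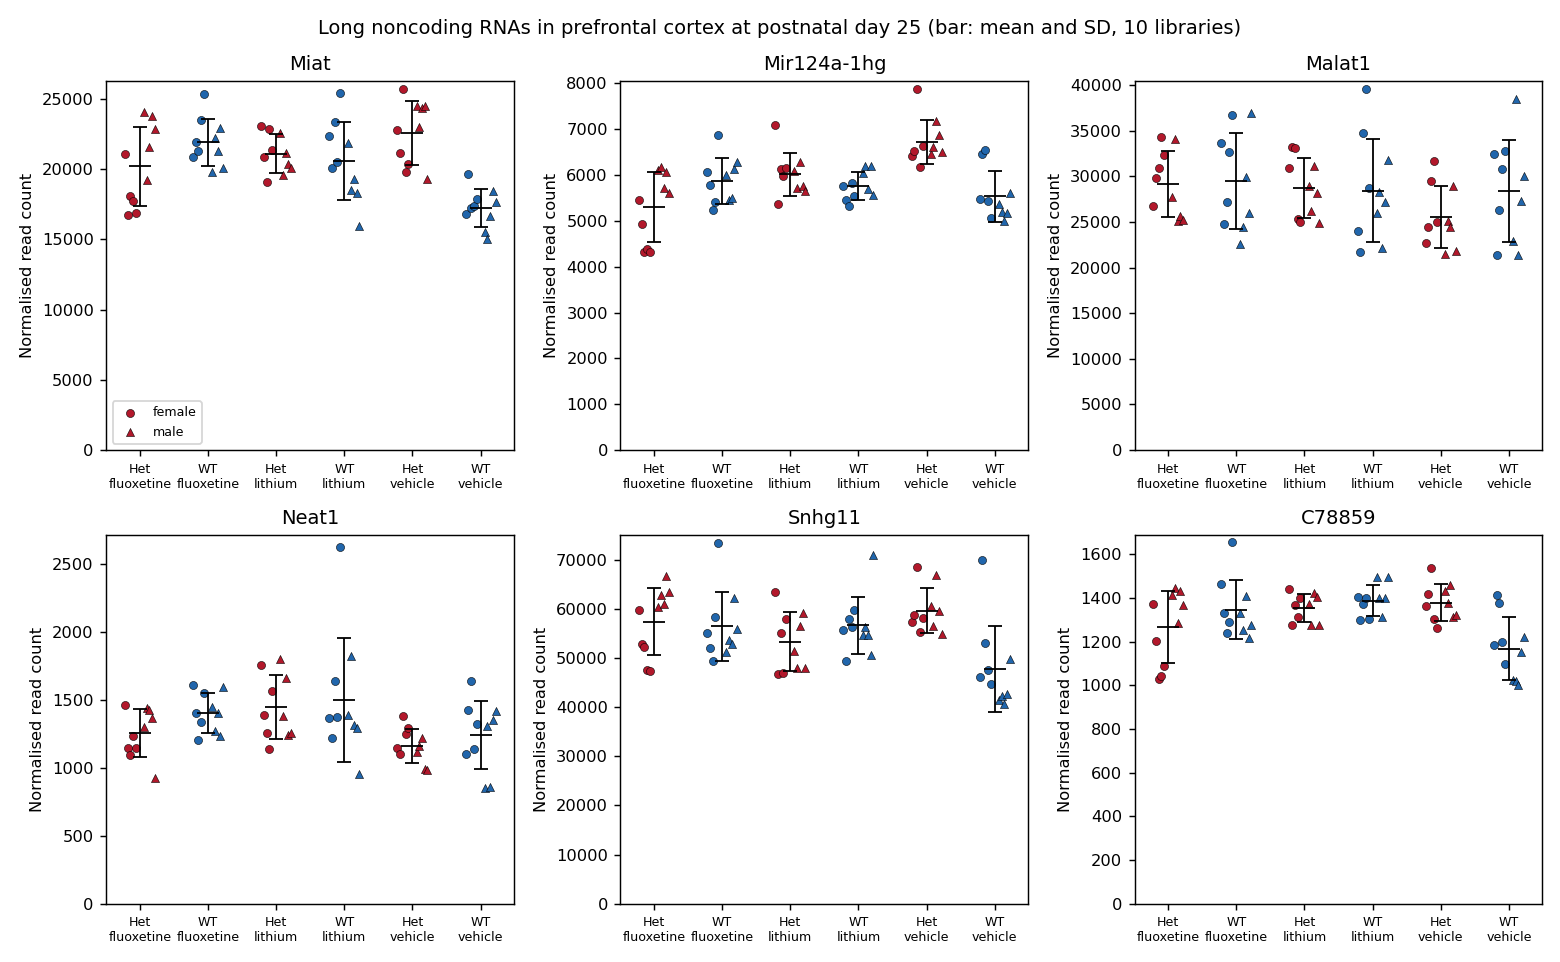
Normalised read count (vertical axis, from 0) of each gene in every library, by group (horizontal axis); circles are females, triangles males, red Het, blue WT, and the bar is the mean with its SD over 10 libraries. Miat is low in WT vehicle and Mir124a-1hg high in Het vehicle, and in Het fluoxetine the female libraries of Mir124a-1hg and Snhg11 lie below all male ones.

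Under vehicle, 4 of the 6 RNAs were higher in Het than in WT mice, and these values are among those that chose the members. Miat was 19279, 22883 and 25721 (lowest, median and highest) in Het vehicle, against 14991, 17287 and 19670 in WT vehicle, a fold of 1.31 (log2 fold 0.39, 95% confidence interval 0.27 to 0.50). Snhg11 was 54964, 58444 and 68499 in Het vehicle, against 40643, 45397 and 69960 in WT vehicle, a fold of 1.26. Apart from 1 WT library each (female replicate 2), the groups do not overlap for either gene. Mir124a-1hg was 6175 to 7874 in Het vehicle and 5008 to 6546 in WT vehicle, a fold of 1.22, and C78859 was 1265 to 1537 in Het vehicle and 1001 to 1416 in WT vehicle, a log2 fold of 0.25. In each of these 4 genes every one of the 10 Het libraries exceeded the average of WT libraries of the same sex, and in males the ranges were apart. Malat1 and Neat1 did not share the pattern, with log2 folds of -0.14 (interval -0.34 to 0.06) and -0.07 (interval -0.30 to 0.16). Over all genes tested, 0.59% were called in this comparison and 0.517% were called higher in Het, where called means an adjusted p below 0.05; since this comparison chose members, nothing is read from the members' share.

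The drug-treated libraries are not part of the vehicle comparison that named Miat, Mir124a-1hg and C78859; whether they entered the choice of the others is not recorded. With fluoxetine, Mir124a-1hg was 4312, 5535 and 6179 in Het mice, against 5227, 5894 and 6868 in WT mice. The Het libraries reach lower than any WT library, but the groups overlap, and 7 of 10 Het libraries were under the average of WT libraries of the same sex. The difference lay in females, with means of 4681 in Het and 5872 in WT, against 5937 and 5878 in males. The log2 fold was -0.16 (SE 0.049, adjusted p = 0.00916, limma with Benjamini-Hochberg adjustment over 17810 genes), which made Mir124a-1hg the 1 of 6 members called, in a comparison where 39.5% of all genes were called and 19.9% were called lower. A count of 1 in 6 is near the share called lower, and nothing is read from it about the members. The call was kept when each library was left out in turn (log2 fold -0.18 to -0.13). It was lost after the GC correction (-0.10, adjusted p = 0.215) and with the library term (-0.23, adjusted p = 0.736); the part of the library differences in this value was not tested.

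Miat with fluoxetine was 16714, 20138 and 24047 in Het mice, against 19751, 21585 and 25337 in WT mice, which overlap through most of their range. The means went opposite ways by sex, at 18089 in Het and 22564 in WT females, and 22277 in Het and 21241 in WT males. For Miat in this comparison, the log2 fold below averages the sexes. The log2 fold of Miat, -0.13 (interval -0.24 to -0.02), missed the threshold (adjusted p = 0.0627, limma), and was 0.03 after the GC correction (adjusted p = 0.768). It passed when 1 of 5 libraries was left out: Het fluoxetine female replicate 1, male replicate 1 or male replicate 4, or WT fluoxetine female replicate 1 or male replicate 1 (adjusted p down to 0.0226). C78859 had a log2 fold of -0.09 (interval -0.19 to 0.01), Neat1 -0.17 (-0.40 to 0.06), Snhg11 0.03 (-0.11 to 0.16) and Malat1 0.00 (-0.21 to 0.20). Of these, only C78859 was ever called with 1 library left out, when Het fluoxetine female replicate 1 was removed (adjusted p = 0.0294).

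With lithium, no member was called between Het and WT mice (limma; 0 of 6 also at an unadjusted p below 0.05, and 0 by edgeR and by DESeq2), and 0.0281% of all genes were. Miat was 19075, 20975 and 23068 in Het lithium, against 15946, 20306 and 25405 in WT lithium, so the Het range lies inside the WT range. The log2 fold of Miat was 0.04 with an interval of -0.07 to 0.16. The intervals were -0.04 to 0.16 for Mir124a-1hg, -0.13 to 0.06 for C78859, -0.22 to 0.05 for Snhg11, -0.18 to 0.23 for Malat1 and -0.25 to 0.21 for Neat1.

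**Figure D2:**
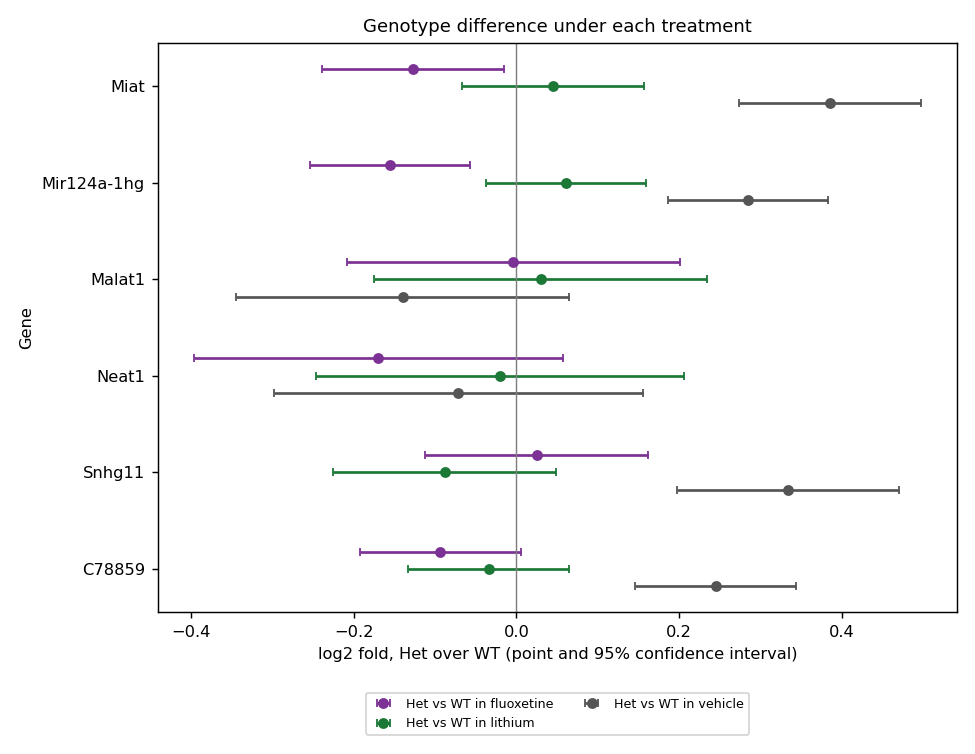
Difference between the genotypes (log2 fold, Het over WT, horizontal axis) for each gene (vertical axis) with fluoxetine (purple), with lithium (green) and with vehicle (grey); points are limma estimates from 10 libraries a group and bars their 95% confidence intervals. The vehicle points of Miat, Mir124a-1hg, Snhg11 and C78859 lie at 0.25 to 0.39, to the right of their points with either drug.

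The change of the genotype difference from vehicle to drug contains the vehicle comparison and is given as a description. From vehicle to fluoxetine it was -0.51 for Miat, -0.44 for Mir124a-1hg, -0.34 for C78859 and -0.31 for Snhg11 (log2), with 24% of all genes called. From vehicle to lithium it was -0.34 for Miat, -0.22 for Mir124a-1hg, -0.28 for C78859 and -0.42 for Snhg11, with 0.0674% of all genes called and none of the 6 members (limma; 4 at an unadjusted p below 0.05, 0 by edgeR and 2, Miat and Snhg11, by DESeq2). Malat1 and Neat1 had intervals that include 0 in both.

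Within Het fluoxetine, Mir124a-1hg and Snhg11 divided by sex, and Miat and C78859 nearly so. Mir124a-1hg was 5459, 4930, 4312, 4393 and 4313 in Het fluoxetine females, against 6102, 6179, 5724, 6071 and 5611 in Het fluoxetine males. Every female library was below every male one. Snhg11 was 59766, 52908, 52182, 47584 and 47280 in the females, against 60432, 62748, 61081, 66762 and 63507 in the males, again without overlap. Miat was 21055, 16714, 18105, 17718 and 16854 in the females, against 24047, 19221, 21552, 23750 and 22815 in the males, with 1 female library reaching above the lowest male. C78859 was 1373, 1203, 1029, 1042 and 1088 in the females, against 1412, 1445, 1285, 1431 and 1366 in the males, overlapping likewise through female replicate 1. The sexes overlapped for Malat1 and Neat1. Ranges of the sexes were apart in Het fluoxetine for 3.6% of all genes, and in WT fluoxetine for 0.736% of all genes and no member. In the remaining groups they were apart for 0.365% (Het lithium) to 2.76% (WT lithium) of all genes and no member. Miat averaged 22349 in females and 18783 in males of WT lithium, and Snhg11 52246 and 43375 in WT vehicle, the opposite direction. Mir124a-1hg in WT lithium averaged 5584 in females and 5940 in males.

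The contrast of the sexes within Het fluoxetine was taken after these values were seen. Mir124a-1hg (log2 fold -0.35, SE 0.069, adjusted p = 0.00556, limma) and C78859 (-0.28, SE 0.070, adjusted p = 0.0419) were called lower in females, 2 of 6 members against 0.528% of all genes called and 0.264% called lower. Miat (-0.30, adjusted p = 0.0566, but called without female replicate 1 or male replicate 2) and Snhg11 (-0.28, adjusted p = 0.187) were not called, and Malat1 was 0.17 with an interval of -0.12 to 0.46. The call of Mir124a-1hg was kept without each library in turn (adjusted p at most 0.0463), after the GC correction (-0.34, adjusted p = 0.00787) and with the library term (-0.36, adjusted p = 0.0065). Among the Het fluoxetine libraries the library term sets only male replicate 1 apart, so it is a weak check of this contrast. That of C78859 was kept after both corrections, but not by edgeR (adjusted p = 0.065) and in only 3 of 10 fits with a library left out; the removal of female replicate 3, 4 or 5 or of male replicate 1, 2, 4 or 5 ended it (adjusted p up to 0.185). The pseudogene level was 1.78 to 2.60 in the females and 1.84 to 5.65 in the males, and the GC correlation -0.31 to -0.19 in the females and -0.24 to -0.10 in the males; their part in the difference was not tested beyond those corrections.

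Whether the sexes differed by more in Het than in WT mice was tested as an interaction. With fluoxetine it was -0.39 for Miat (adjusted p = 0.184, limma), -0.38 for C78859 (0.154), -0.34 for Mir124a-1hg (0.182) and -0.33 for Snhg11 (0.392), and no member was called (limma; 4 at an unadjusted p below 0.05, 0 by edgeR and by DESeq2). No gene at all was called, where 1705 had an unadjusted p below 0.05, edgeR called 0 and DESeq2 35. C78859 passed without the 3 libraries with the largest residuals (adjusted p = 0.046) and without Het fluoxetine female replicate 1 (adjusted p = 0.031). With lithium, 0 members were called (limma, edgeR and DESeq2; 0 at an unadjusted p below 0.05). No gene was called there by limma or edgeR, 15 were by DESeq2 and 2894 had an unadjusted p below 0.05. Averaged over all groups, no member was called between females and males (limma, edgeR and DESeq2; 0 at an unadjusted p below 0.05, with 0.107% of all genes called), and the intervals reached at most 0.23.

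In WT mice both drugs went with higher levels of Miat, Snhg11 and C78859. The vehicle libraries are the same as in the genotype comparison that chose members, so these calls are not independent of it, and the comparisons with each drug share them. Miat was 19751, 21585 and 25337 in WT fluoxetine, against 14991, 17287 and 19670 in WT vehicle. The ranges do not overlap, and 0.545% of all genes had ranges apart in this comparison. The log2 fold was 0.35 (SE 0.056, adjusted p = 2.34e-05, limma). Snhg11 rose by 0.25 (SE 0.068, adjusted p = 0.0135) and C78859 by 0.21 (SE 0.049, adjusted p = 0.00347) with fluoxetine. These 3 of 6 members were called where 8.43% of all genes were called and 4.35% were called higher.

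With lithium, Miat was 15946, 20306 and 25405 in WT lithium, against 14991, 17287 and 19670 in WT vehicle, with females apart (20097 to 25405 against 16817 to 19670) and males overlapping. Its log2 fold was 0.25 (SE 0.056, adjusted p = 0.00119, limma). C78859 was 1299, 1399 and 1494 in WT lithium, against 1001, 1168 and 1416 in WT vehicle, and all 10 WT lithium libraries exceeded the vehicle average of the same sex (log2 fold 0.26, SE 0.049, adjusted p = 0.00023). Snhg11 rose by 0.26 (SE 0.068, adjusted p = 0.006). Again 3 of 6 members were called, where 19.2% of all genes were called and 9.34% were higher. All 6 of these calls with either drug were kept without each library in turn, and with the library term. Among the WT libraries that term sets only WT vehicle female replicate 2 apart, so it is a weak check of these calls. Mir124a-1hg was not called in WT mice with fluoxetine (0.09, interval -0.01 to 0.19) or lithium (0.06, interval -0.04 to 0.16).

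Markers of other cell types moved in the same comparisons. In WT lithium, 5 of 5 endothelial, 5 of 5 microglia and 4 of 5 astrocyte markers were called lower than in WT vehicle, and in WT fluoxetine 4 of 5 endothelial markers were. Over all genes, 19.2% were called in either direction with lithium, of which 9.34% were higher and the rest lower. With fluoxetine 8.43% were called, 4.35% higher and the rest lower. Summed endothelial markers were 2712 to 4433 in WT lithium and 3539 to 5182 in WT fluoxetine, against 4502 to 5743 in WT vehicle. Summed microglia markers were 4285 to 6513 in WT lithium and 6195 to 8886 in WT fluoxetine, against 6391 to 7813 in WT vehicle. Summed astrocyte markers were 26760 to 36762 in WT lithium and 30617 to 43265 in WT fluoxetine, against 32291 to 39290 in WT vehicle. None of these markers was at 0 in any group. Their part in the results for Miat, Snhg11 and C78859 was not tested, and in bulk tissue fewer cells of a type and less RNA per cell cannot be told apart.

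In Het mice, Mir124a-1hg, Miat and C78859 were called lower with fluoxetine than with vehicle. Mir124a-1hg was 4312, 5535 and 6179 in Het fluoxetine, against 6175, 6569 and 7874 in Het vehicle. The ranges were apart within each sex, and over both sexes they overlapped by 1 library of each group. The log2 fold was -0.35 (SE 0.049, adjusted p = 2.62e-07, limma; lower in 10 of 10 libraries). Miat fell by 0.17 (SE 0.056, adjusted p = 0.015) and C78859 by 0.13 (SE 0.049, adjusted p = 0.0304) on the log2 scale, so 3 of 6 members were called where 39% of all genes were called and 19.9% were lower. These falls lay mainly in females. C78859 averaged 1147 in Het fluoxetine females against 1378 in Het vehicle females, and 1388 against 1380 in males. Miat averaged 18089 against 21959 in females, and 22277 against 23118 in males. Het vehicle is again the group that helped choose Miat, Mir124a-1hg and C78859.

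The call of Mir124a-1hg was kept after the GC correction (-0.32, adjusted p = 4.99e-06) and with the library term (-0.42, adjusted p = 0.0195), under which 49 genes were called in all. That of Miat was lost after the GC correction (-0.05, adjusted p = 0.625) and with the library term (-0.18, adjusted p = 0.638). That of C78859 was lost with the library term (-0.22, adjusted p = 0.415), and in 7 of 20 fits with a library left out: Het fluoxetine female replicates 3, 4 and 5, Het fluoxetine male replicate 3, Het vehicle female replicate 3 and Het vehicle male replicates 1 and 3 (adjusted p up to 0.0787). Of the markers, 5 of 5 endothelial ones were called lower in Het fluoxetine than in Het vehicle, where 19.9% of all genes were. Their sums were 3492 to 4738 in Het fluoxetine against 4231 to 6757 in Het vehicle, with none at 0, and their part was not tested.

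With lithium no member was called in Het mice (limma; 3 at an unadjusted p below 0.05, 0 by edgeR and by DESeq2), where 0.983% of all genes were. Mir124a-1hg was 5359, 6034 and 7094 in Het lithium, against 6175, 6569 and 7874 in Het vehicle, overlapping in females and apart in males. Its log2 fold of -0.16 (interval -0.26 to -0.06, adjusted p = 0.0872) passed only when Het lithium female replicate 1 was left out (adjusted p = 0.0334). Neat1 was 1140, 1383 and 1801 in Het lithium, against 980, 1154 and 1379 in Het vehicle, with males apart (log2 fold 0.30, interval 0.08 to 0.53, adjusted p = 0.19). Snhg11 had a log2 fold of -0.17 (interval -0.30 to -0.03, adjusted p = 0.24).

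**Figure D3:**
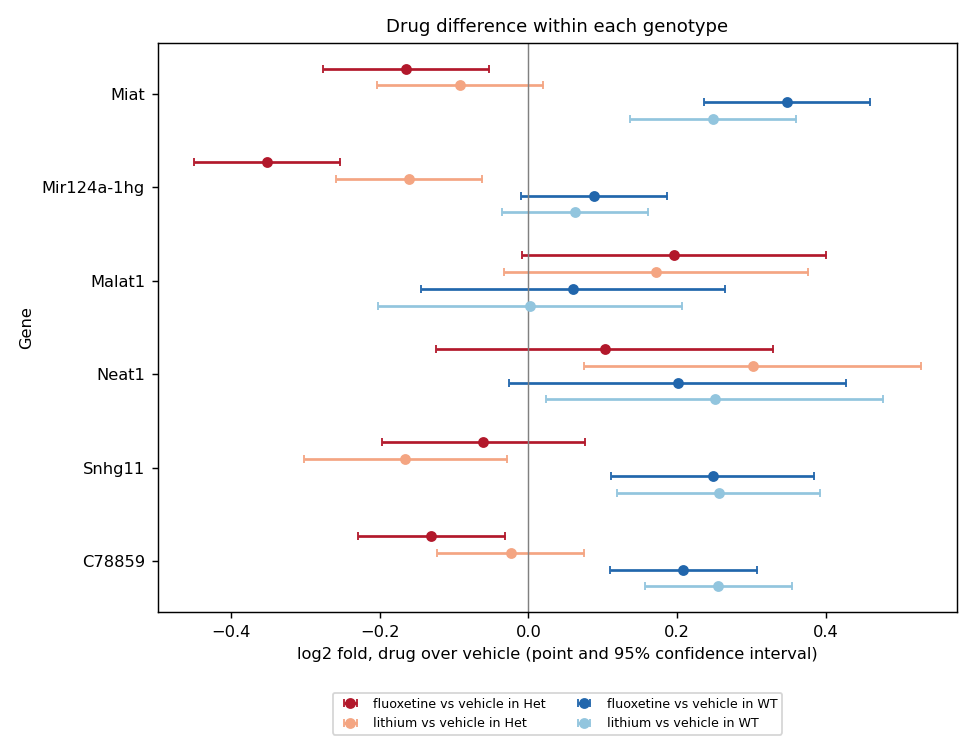
Difference between drug and vehicle (log2 fold, drug over vehicle, horizontal axis) for each gene (vertical axis), in Het mice (red, fluoxetine; light red, lithium) and WT mice (blue, fluoxetine; light blue, lithium); points are limma estimates from 10 libraries a group and bars their 95% confidence intervals. For Miat, Snhg11 and C78859 the WT points lie at 0.21 to 0.35, and the Het points lie below 0.

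Fluoxetine and lithium were also set against each other, without any vehicle library, in a contrast added after the data were seen. In Het mice Mir124a-1hg was lower with fluoxetine (4312, 5535 and 6179) than with lithium (5359, 6034 and 7094), overlapping in the upper part of the fluoxetine range. The log2 fold was -0.19 (SE 0.049, adjusted p = 0.00231, limma), 1 of 6 members called where 32.8% of all genes were called and 16.7% lower. It was kept after the GC correction (-0.15, adjusted p = 0.0368) and not with the library term (-0.26, adjusted p = 0.479). In WT mice no member was called between the drugs (limma, edgeR and DESeq2; 0 at an unadjusted p below 0.05), where 13.1% of all genes were. The interval for Miat was -0.01 to 0.21 and that for C78859 -0.15 to 0.05.

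Malat1 and Neat1, the nuclear-body RNAs, were called in none of the 15 contrasts (limma). Malat1 was 21530, 24739 and 31677 in Het vehicle and 21323, 28695 and 38490 in WT vehicle, and its libraries spanned 1.85-fold over the study. All 10 Het fluoxetine libraries exceeded the Het vehicle average of the same sex (log2 fold 0.20, interval -0.01 to 0.40, adjusted p = 0.124), and the call was made only in a fit of these groups alone (adjusted p = 0.0322). Neat1 spanned 3.08-fold, with its highest value, 2624, in WT lithium female replicate 5 and its lowest, 851, in a WT vehicle male. In WT lithium it was 953, 1369 and 2624, against 851, 1314 and 1635 in WT vehicle (log2 fold 0.25, interval 0.02 to 0.48, adjusted p = 0.109). The SE of such a contrast was 0.113 for Neat1, against 0.056 for Miat.

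The 6 genes were compared in how they varied over the 60 libraries. Pearson's r of log2 values was 0.77 for Snhg11 with C78859, 0.74 for Mir124a-1hg with C78859, 0.63 for Miat with C78859 and 0.61 for Miat with Snhg11. In deviations from the 12 group means, which do not hold the group differences, r was 0.70, 0.75, 0.38 and 0.40 for these pairs. Neat1 in these deviations had r of 0.47 with Mir124a-1hg, 0.39 with Miat and 0.37 with C78859. Malat1 had r of -0.20 to 0.29 to the other members. The points share the depth and base composition of each library, whose part was not tested: r with the GC measure of the library ran over the members down to -0.47 (Snhg11) and up to 0.20 (Miat), and r with depth lay between -0.19 and 0.17.

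**Figure D4:**
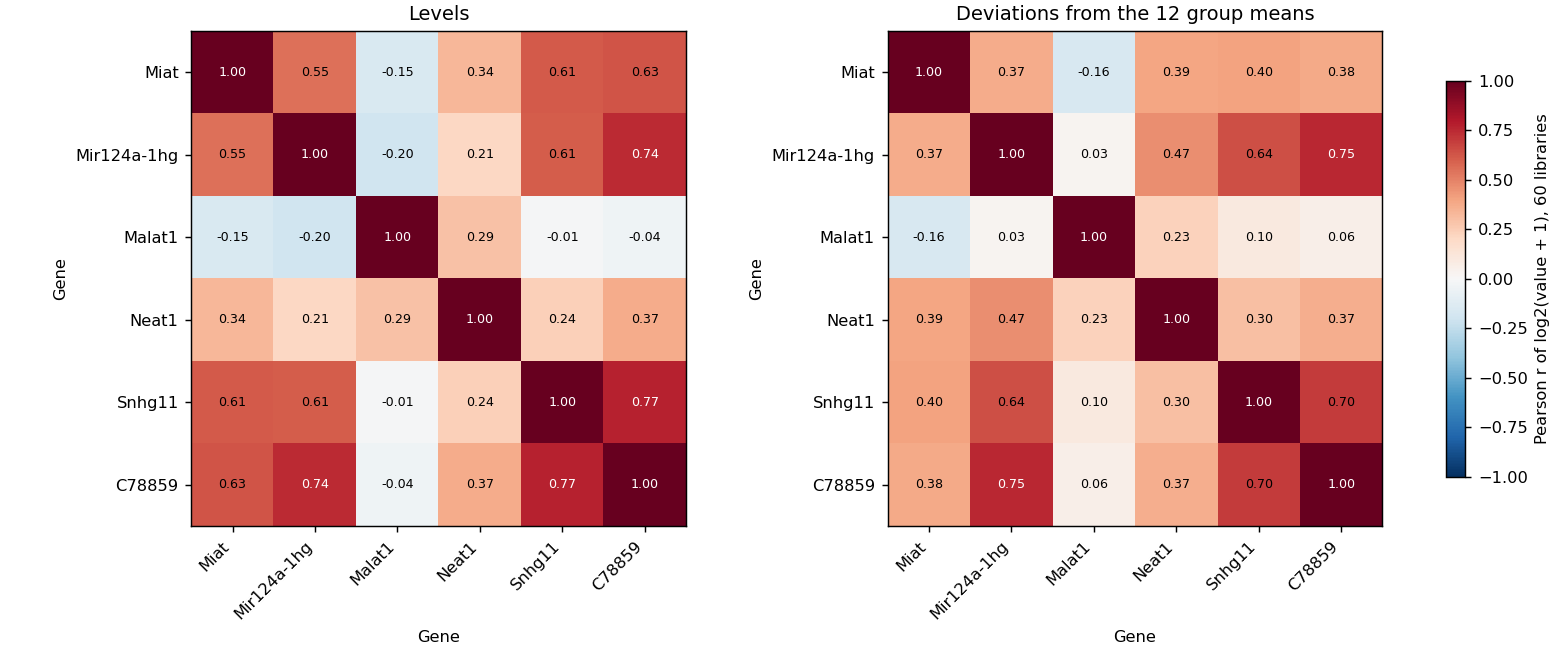
Pearson's r between the genes (both axes) over 60 libraries, for levels (left) and for deviations from the 12 group means (right), on a scale of -1 (blue) to 1 (red). Snhg11, C78859 and Mir124a-1hg correlate at 0.61 to 0.77 on both sides, and Malat1 is pale throughout.

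The genes most like each member were sought among tested genes, leaving out the members themselves, predicted-gene numbers, clone names, Xist and Y-linked genes. The one most like Miat over the 60 libraries was another long noncoding RNA, the imprinted Meg3 (r = 0.85), followed by Thpo (0.83) and Trank1 (0.81). For Mir124a-1hg the most alike were the zinc transporter Slc39a2 (0.79), Mirg, a noncoding RNA of the same imprinted locus as Meg3 (0.77), and the choline kinase Chka (0.77). For Snhg11 they were Zcchc7 (0.87), Pnisr (0.84) and Ccdc39 (0.82), and for C78859 Abcc5 (0.84), Arnt (0.77) and Rbm5 (0.76). Neat1 (Med12, 0.66) and Malat1 (Lyz2, 0.49) had no gene as close. In deviations from the group means the leading genes outside the members were Vwa5b2 for Miat (0.80), Msantd2 for both Mir124a-1hg (0.73) and C78859 (0.74), Zcchc7 for Snhg11 (0.85), Dennd6b for Neat1 (0.69) and Usp24 for Malat1 (0.53). Mir124a-1hg and C78859 were closer to each other in deviations (0.75) than to Msantd2. In levels C78859 was closer to Snhg11 (0.773) than to Arnt (0.767).

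Tested genes next to 5 of the members were also read. The Het over WT log2 fold under vehicle was 0.22 for E130006D01Rik and -0.11 for Cryba4, on either side of Miat, and 0.32 for Gm47202 and 0.03 for Kif13b, on either side of Mir124a-1hg. It was 0.02 for Ralgapb and 0.12 for Snhg17, on either side of Snhg11, and 0.01 for Slc12a3 and -0.03 for Nup93, on either side of C78859. It was -0.07 for Frmd8, next to Neat1. None of these 9 was called (adjusted p at least 0.447, limma), with SEs of 0.031 (Ralgapb) to 0.20 (Slc12a3). Frmd8, which lies 4224 bases from Neat1, was lower with fluoxetine in Het mice (-0.45, adjusted p = 3.67e-07) and WT mice (-0.19, adjusted p = 0.0476) and with lithium in WT mice (-0.34, adjusted p = 0.000191), while Neat1 itself was not called there, at 0.10, 0.20 and 0.25. In Het mice the value of Frmd8 with fluoxetine was -0.31 after the GC correction (adjusted p = 5.02e-05) and -0.29 with the library term (adjusted p = 0.393). Other neighbours were also called against vehicle (limma). E130006D01Rik (mean 14.3 normalised reads) was lower with fluoxetine in Het mice (-0.58, adjusted p = 0.0044), as was Miat. With lithium in WT mice Nup93 (0.15, adjusted p = 0.0211) and Ralgapb (0.10, adjusted p = 0.016) were higher, as were C78859 and Snhg11. With fluoxetine Gm47202 was higher in WT mice (0.48, adjusted p = 0.0296) and Ralgapb in Het mice (0.12, adjusted p = 0.0021). Mir124a-1hg and Snhg11 were not called there.

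Among 28 other brain and imprinted long noncoding RNAs tested, 2 were called higher under vehicle in Het than in WT mice, where 0.517% of all genes were. They were Meg3 (0.34, SE 0.044, adjusted p = 4.94e-06, limma) and Ftx (0.35, SE 0.080, adjusted p = 0.0312). The median log2 fold of the 28 was 0.05 against 0.00 over all genes. In the other comparisons Meg3 was lower in Het than WT mice with fluoxetine (-0.12, adjusted p = 0.0275), higher with fluoxetine in WT mice (0.29, adjusted p = 1.29e-05) and lower in Het mice with fluoxetine (-0.17, adjusted p = 0.0018) and with lithium (-0.20, adjusted p = 0.0157). Mirg fell in Het mice with fluoxetine (-0.56, adjusted p = 1.59e-11) and lithium (-0.27, adjusted p = 0.0043). Tug1 and Snhg14 were higher in Het mice with fluoxetine, at 0.23 (adjusted p = 0.000142) and 0.26 (adjusted p = 0.000333). Of these calls with fluoxetine in Het mice, only that of Mirg was kept with the library term (-0.47, adjusted p = 0.0111; Meg3 -0.22, Snhg14 0.29 and Tug1 0.01, adjusted p at least 0.339), and only those of Mirg and Meg3 (-0.52 and -0.18) after the GC correction. The difference of Meg3 between Het and WT mice with fluoxetine was lost under both (adjusted p = 0.815 with the library term and 0.127 after the GC correction).

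With fluoxetine in WT mice 8.43% of all genes were called and 4.35% were called higher, and with lithium 19.2% and 9.34%. Of the 665 genes of type lincRNA tested, 44 were called higher and 1 lower with fluoxetine in WT mice. With lithium 62 were higher and 16 lower, and the 62 are near the share of all genes called higher. The median log2 fold was 0.11 with fluoxetine and 0.07 with lithium, against 0.00 over all genes in both. With the library term these counts were 46 and 1, and 71 and 15. In Het mice, where 39% of all genes were called with fluoxetine, 66 were higher and 47 lower. Those counts were 0 and 4 with the library term and 20 and 46 after the GC correction. With lithium in Het mice, where 0.983% of all genes were called, 1 was higher and 4 lower.

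The small nucleolar RNA host genes are the family of Snhg11. In WT mice 8.43% of all genes were called with fluoxetine and 19.2% with lithium. Of 21 host genes tested, with a median log2 fold of 0.06 between Het and WT under vehicle, 1 was higher with fluoxetine in WT mice (Snhg20, 0.33, adjusted p = 0.000575), and 2 were higher (Snhg1, 0.40, and Snhg15, 0.36) and 3 lower with lithium. In Het mice with fluoxetine 2 were higher and 10 lower, where 39% of all genes were called and 19.9% were lower, among them Snhg8 (-0.39, adjusted p = 1.79e-05). Snhg8 was called after the GC correction (-0.45, adjusted p = 2.67e-05) and not with the library term (-0.21, adjusted p = 0.667), under which the median of the 21 was 0.01.

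Transcripts of the proteins that share nuclear bodies or binding with the members were read as lists. Under vehicle, 0.517% of all genes were called higher in Het than in WT mice, a share to set beside the vehicle counts here. Of 25 nuclear speckle proteins, 3 were called higher in Het vehicle than in WT vehicle, among them Snrnp70 (0.19, adjusted p = 0.0312), the spliceosomal U1 protein, and Srrm2 (0.18, adjusted p = 0.0453), a core protein of speckles. With fluoxetine in WT mice 5 were higher, with Snrnp70 at 0.21 (adjusted p = 0.00111), and 1 lower, and with lithium 7 higher and 1 lower. Over all genes, 4.35% were higher with fluoxetine and 9.34% with lithium in WT mice. Of 20 paraspeckle proteins, the partners of Neat1, 2 were higher in Het vehicle, among them Taf15 (0.14, adjusted p = 0.0275). In WT mice their median log2 fold was -0.01 with fluoxetine, and 4 were called higher and 2 lower with lithium. Of 5 proteins known to bind Miat, 1 rose in WT mice with each drug, the branch-point protein Sf1 (0.09 with fluoxetine, adjusted p = 0.0354, and 0.09 with lithium, adjusted p = 0.0192), and it fell in Het mice with fluoxetine (-0.14, adjusted p = 0.000102). That call of Sf1 was lost after the GC correction (-0.03, adjusted p = 0.609) and with the library term (-0.04, adjusted p = 0.893).

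Known targets of miR-124 were read beside its host transcript. The median log2 fold of 30 targets was -0.03 between Het and WT under vehicle, and 4 were higher and 9 lower in Het than in WT mice with fluoxetine, where 39.5% of all genes were called and 19.9% were lower. After the GC correction 1 was higher and 1 lower, and with the library term, which left 7 genes called in all, the median was -0.03. With fluoxetine in Het mice, where Mir124a-1hg was lower, 2 targets were higher and 11 lower, with Tmem109 at -0.43 (adjusted p = 1.03e-08) and Ctdsp2 at -0.26 (adjusted p = 2.64e-05), in a comparison where 39% of all genes were called and 19.9% were lower. These counts were 1 and 7 after the GC correction and 0 and 1 with the library term, under which Tmem109 was -0.28 (adjusted p = 0.267) and Ctdsp2 -0.14 (adjusted p = 0.681). With lithium in WT mice, where the host transcript was not called, 1 was higher and 11 lower, led by the lactate transporter Slc16a1 (-0.44, adjusted p = 2.77e-05) and Ctdsp1 (-0.30, adjusted p = 0.000116), a phosphatase of the complex that silences neuronal genes. Over all genes, 19.2% were called with lithium in WT mice, 9.34% higher and the rest lower. The host of a further miR-124 gene, Mir124-2hg, was higher in Het mice with fluoxetine than with vehicle (0.43, SE 0.105, adjusted p = 0.00112), the opposite direction to Mir124a-1hg. It was 0.24 after the GC correction (adjusted p = 0.0116) and 0.05 with the library term (adjusted p = 0.977).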

How the data were processed

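Libraries came from a TruSeq Stranded mRNA kit, which captures poly(A) RNA (per the labels' protocols). The submitters' processing notes name GRCm38, R 3.6.0, Salmon 0.11.2 and DESeq2 1.19.11; use of the strand in counting is not stated there. Each deposited signal value is a gene's read count that the authors scaled by 1 size factor per library: after division by the fixed step of its column, 100% of values were whole to within 0.001. The design had allowed for counts or normalised values, so a count test was not the main one. Over the 60 libraries, limma 3.58.1 (trend, robust, R 4.3.3) was fitted to log2(value + 1) as 12 group means, which left 48 residual degrees of freedom. It tested 17810 genes, those that reached a value of 10 in 5 or more libraries. Calls were made at an adjusted p (Benjamini-Hochberg) below 0.05 in each of 15 contrasts, of which 3 were added after the data were seen. The pseudocount of 1 makes the folds of low genes too small.

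The alternatives were other scaling (TMM), no filter, a pseudocount of 5, the groups compared alone, edgeR 4.0.16 and DESeq2 1.42.0 on the recovered reads, a loess correction for GC content (span 0.3), a library term for 10 libraries low in 16 pseudogenes that differed over 4-fold between Het and WT in fluoxetine, leaving out the 3 libraries with the largest residuals, the replicate number as a block, and each library left out in turn. Models were tested on simulated data.

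The members, gene lists and tests were chosen with earlier results of these data known. Named beside the members are, for each, the 3 genes most correlated with it (in levels and in deviations) and its nearest tested neighbours. The correlated genes leave out the members, predicted-gene numbers, clone names, Xist and Y-linked genes. Also named are the 2 called genes with the smallest p of each list named in the results, and Grin2b. Not all are printed. Sequences are from GENCODE M21 transcripts and RefSeq.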

Additional observations from a re-analysis of the deposited data

Results flagged for a closer look

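Single libraries stood apart from the other 4 of their group of genotype, drug and sex in 7 of 72 cases. A case is 1 of the 6 members in 1 of the 12 groups. Chance gives such a gap in about 1 in 20 cases (3.6 here). The members share their libraries, so the cases are not independent. Miat was lowest in Het vehicle male replicate 5, at 19278.6 normalised reads. Mir124a-1hg was highest in Het vehicle female replicate 3, at 7873.8, and so was Snhg11, at 68498.7. Snhg11 also had a high library in WT lithium male replicate 5, at 70913.6, and in WT vehicle male replicate 5, at 49774.4. Malat1 was highest in Het fluoxetine male replicate 2, at 34132.2. Neat1 was lowest in Het fluoxetine male replicate 5, at 923.8.

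For 4 members the difference between fluoxetine and vehicle was not alike in Het and WT mice by the interaction in limma, at -0.513 for Miat, -0.44 for Mir124a-1hg, -0.339 for C78859 and -0.309 for Snhg11 (log2). These values are a description, since the vehicle comparison that is part of them helped choose members. Over all genes 24% (4272) were called, against 8 with the library term, under which 1 of the 4, Mir124a-1hg, was among them.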

How the results depend on the processing

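With all libraries, 1 of the 6 members was called between Het and WT in fluoxetine. The count was 2 with the groups compared alone and 2 without the 3 libraries with the largest residuals, and 0 after the GC correction, with the library term and with the replicate block with GC correction. For the genotype by lithium interaction it was 0, and 2 by DESeq2, after the GC correction, with the library term, without the 3 libraries and with the replicate block with GC correction. The library term left 1 member for fluoxetine against vehicle in Het, where it had been 3, 1 for the genotype by fluoxetine interaction, where it had been 4, and 0 for fluoxetine against lithium in Het, where it had been 1. Of 2 members called between females and males in Het fluoxetine, 1 was called with the groups alone and 1 by edgeR. The sex by genotype interaction in fluoxetine had 1 without the 3 libraries, against 0. The cause of these changes was not tested; the library term leaves 1 Het fluoxetine library outside the low set.

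With each library left out in turn, the count was 1 to 3 for Het against WT in fluoxetine, 1 to 2 for fluoxetine against lithium in Het, 0 to 1 for the sex by genotype interaction in fluoxetine, 1 to 3 for the sexes in Het fluoxetine, 0 to 1 for lithium against vehicle in Het and 0 to 3 for the genotype by lithium interaction, with 3 reached without WT vehicle female replicate 2, female replicate 3 or male replicate 5. It stayed at 3 for each drug in WT.

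Over all genes, Het against WT in fluoxetine called 7042, but 2324 after the GC correction and 7 with the library term; fluoxetine against vehicle in Het called 6952, 3495 and 49. Het against WT in vehicle called 105, with 48 for the groups alone, 68 by edgeR, 222 after the GC correction and 343 without the 3 libraries. Lithium against vehicle in WT called 3420, and 1313 with the groups alone. Signs changed 108 times between values that were called in neither fit, and no called value changed sign.

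The same replicate number did not pair samples: 330 pairs of same-numbered libraries had a mean correlation of 5.38e-05 (range -0.337 to 0.375, 54 over 0.1). With the replicate block the counts were 1 for Het against WT in fluoxetine and 3 for each drug in WT, as without it, and no call of a member changed in the comparisons with drug. Each member had 796 reads or more in every library. Counting error was not separated from the spread between libraries, and it need not be small beside it for C78859. That gene had as few as 891 reads in a library, and its SD was 3.76% of its mean in WT lithium females.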
